A study of Rosa rugosa with 9 samples.

Results

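Roots of Rosa rugosa 'Zizhi', an ornamental and fragrance rose, grown with part of their phosphate salt replaced by humic acid (HA1) were compared with roots grown with the full phosphate salt and no humic acid (CK), gene by gene. The members were the HA1 and CK libraries, 3 of each and 6 of the 9 RNA-seq libraries in the series. The other 3 libraries, from a larger replacement, entered the filter on low counts, the scaling and the estimate of spread between replicates, and were not compared here. All plants were of the same cultivar and stood in sand in a greenhouse for 37 weeks, with 200 ml of Hoagland nutrient solution per pot each week. The CK plants were given 0.092 g of ammonium dihydrogen phosphate. The HA1 plants were given 0.0552 g of that salt, 60% of the control amount, together with 0.0368 g of humic acid. Phosphate and the ammonium of the salt therefore fell while humic acid rose, and their effects cannot be told apart in this design. Whether the replicates of a group came from separate plants is not said in the labels, and the p-values speak only for the spread among these libraries, which may be technical.

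Plants take up phosphate as an anion through root transporters and pass it to the shoot through exporters of the PHO1 family. SPX-domain proteins sense phosphate status, acid phosphatases free phosphate from organic compounds, and membrane lipids can be rebuilt to save phosphate when it is scarce. Humic acids are large organic molecules from decayed plant matter that are known in several crops for effects on root branching, proton pumping and hormone pathways. Gene names below are those of the best Swiss-Prot match in the authors' deposited table, mostly from Arabidopsis, and the roles given are those known in the matched species.

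The HA1 libraries lay closer together than the CK libraries on the main axis of variation, and CK replicate 2 stood apart from the other controls. On the first principal component of log2 CPM (counts scaled to library size), which carried 58.0% of the variance of the 6 libraries, the HA1 libraries lay at 88.7, 83.3 and 71.9 for replicates 1 to 3. The CK libraries lay at -90.3, -32.9 and -121, so CK replicate 2 was the control nearest to HA1. The median absolute difference in log2 CPM was 0.28 between CK replicates 1 and 3, 0.42 between 1 and 2, and 0.46 between 2 and 3, against 0.28 to 0.39 between HA1 libraries. Total counts were 33847262 to 42895196 per library, and 3 counts corresponded to 0.0637 to 0.0903 CPM after TMM scaling. Markers of root identity were present in every library, with summed levels of 71.1 to 126 CPM in CK and 80.3 to 109 CPM in HA1, and 0 of 11 tested genes of that list passed by edgeR or DESeq2, with 1 at an unadjusted p under 0.05. Photosynthesis genes, a list of 86, summed to 132 to 244 CPM in CK and 93.6 to 128 CPM in HA1. Of 45 of them tested 3 fell and 0 rose, 6.67% lower against 10.3% of all genes (0 and 7 for rises and falls with total-count scaling, and 0 and 6 by DESeq2).

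**Figure D1:**
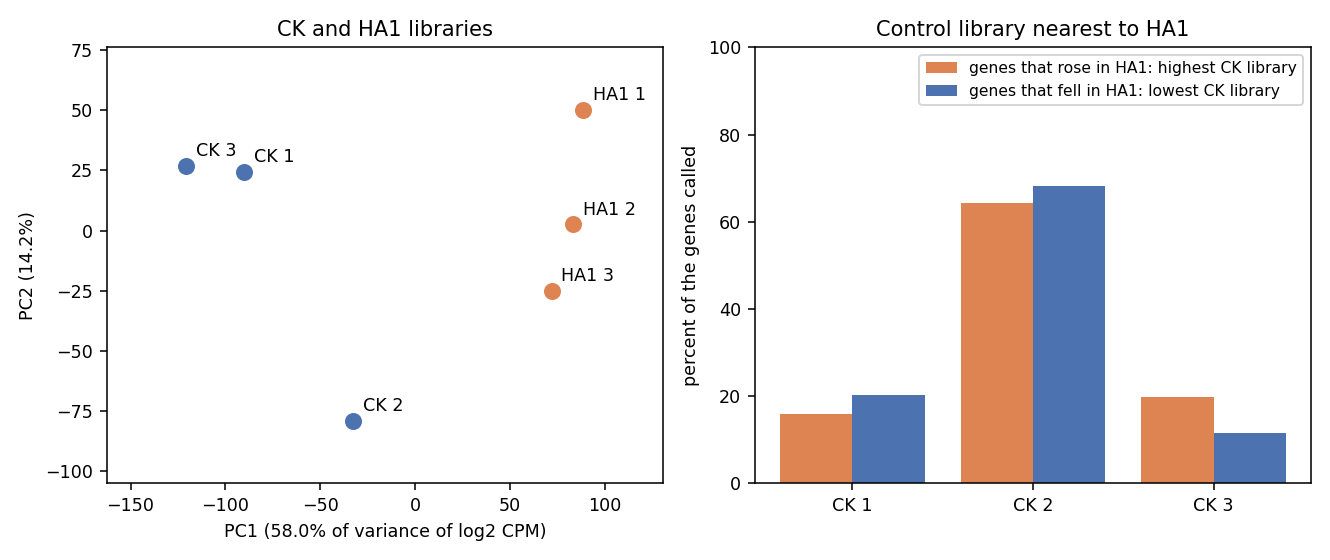
The left panel plots the first against the second principal component of log2 CPM (58.0% and 14.2% of the variance), 1 point per library, with CK in blue and HA1 in orange. The right panel gives, for each CK library, the percent of genes that rose in HA1 in which it was the highest CK library and the percent of genes that fell in which it was the lowest, and CK replicate 2 stands at 64.2% and 68.2%.

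Across all genes HA1 differed widely from CK, in both directions to a similar extent. Of 25260 genes with enough counts to test, out of 47983 listed, 2761 were higher in HA1 and 2594 lower at an adjusted p under 0.05 (edgeR, quasi-likelihood F test, Benjamini-Hochberg). All adjusted p below are from this fit unless DESeq2 is named. This is 21.2% of the genes tested, 10.9% higher and 10.3% lower, and these shares are the background for every list below. Calls with at least a 2-fold change made up 14.8%, 1818 higher and 1919 lower, and 164 genes rose and 76 fell at least 8-fold. The median log2 fold change over all genes was -0.015, and it was 1.22 among genes called higher and -1.34 among those called lower. In 11370 genes, 45.0% of those tested, the CK and HA1 values did not overlap, with 22.7% higher and 22.3% lower in HA1. Genes named below as called were picked by p or by change from these same values, so non-overlap in them is no separate support. Among the genes called higher, CK replicate 2 was the highest control in 1773 of 2761, and among those called lower it was the lowest in 1768 of 2594.

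The number of calls rested on single libraries. Without CK replicate 1 edgeR called 0 genes, the lowest adjusted p being 0.0506, although 4314 genes had an adjusted p under 0.1 and 7630 an unadjusted p under 0.05. The DESeq2 Wald test without CK replicate 1, an alternative chosen after seeing the data, called 5233. Without CK replicate 3 edgeR called 666 genes, and without HA1 replicates 1, 2 and 3 it called 1675, 823 and 2422. Every gene called from all libraries and tested in an alternative had the same sign there. The alternatives refit the same libraries, so this was close to fixed in advance. The balance between rises and falls depended on the scaling of the libraries. With TMM scaling 51.6% of the calls were higher in HA1, and with scaling by total counts 25.3% were, 1578 against 4647, as the median of all genes moved to -0.31. The counts of lists given below are from TMM scaling, with those from total counts beside them where the majority of a list's calls changed side or its calls in 1 direction changed by over 1.5 times, rises being given first.

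**Figure D2:**
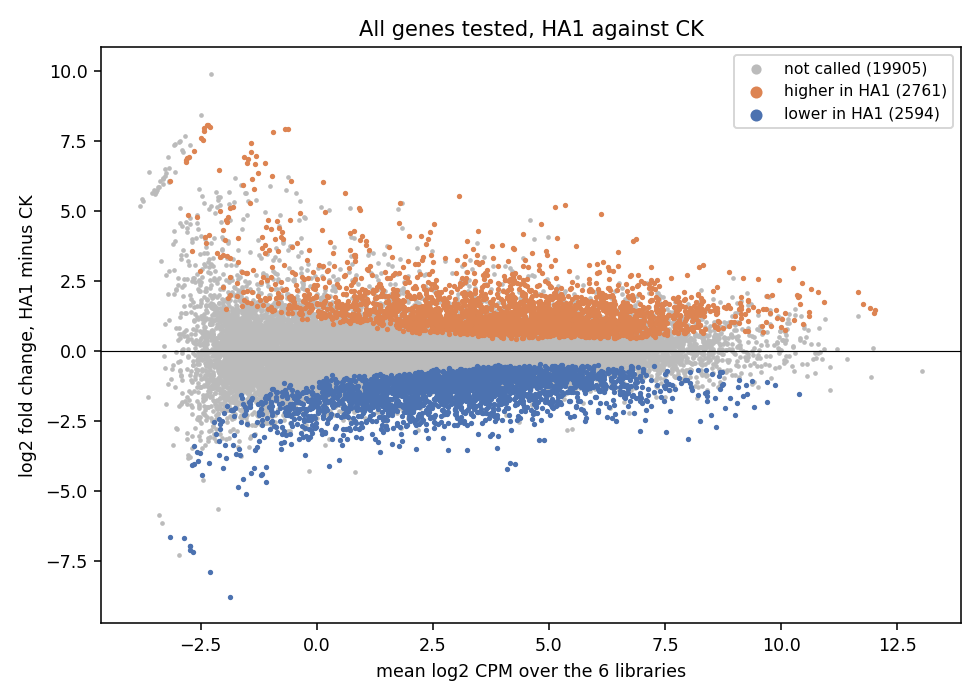
Each point is 1 of the 25260 genes tested, with its mean log2 CPM over the 6 libraries on the x axis and its log2 fold change, HA1 minus CK, on the y axis. Genes called are in orange (2761 higher in HA1) and blue (2594 lower), and both colours run along the whole range of expression.

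The genes with the lowest p were a mixed group of regulators, transporters and mitochondrial proteins. The gene for UVR8, a photoreceptor of ultraviolet-B light (Rru03G014810), had 38.4, 40.4 and 41.2 CPM in CK and 227, 209 and 173 CPM in HA1, and it rose by 2.34 ± 0.25 (log2 fold change ± SE, here and below, with n = 3 libraries per group). The trihelix factor ASIL2 (Rru02G056190), which in Arabidopsis seedlings holds seed genes silent, had 10.7, 11.4 and 11.1 CPM in CK and 48.7, 39.3 and 42.5 CPM in HA1, and it rose by 1.97 ± 0.17. Oligopeptide transporter 7 (Rru02G014100) rose by 2.40 ± 0.23, with 5.94, 7.74 and 6.35 CPM in CK and 42.6, 30.9 and 32.0 CPM in HA1. In these 3 genes the controls lay within a narrow band and every HA1 library lay well above it. The MYB-type factor MYBC1 (Rru02G038360) rose by 1.46 ± 0.15, and HEAT INTOLERANT 4 (Rru03G003960), needed in Arabidopsis for heat tolerance, rose by 1.35 ± 0.14. Rises were also found for CcmE (Rru05G069160), which hands heme to mitochondrial cytochrome c, at 1.84 ± 0.19, and for copies of a mitochondrial pentatricopeptide repeat protein (Rru01G053870 and Rru01G017450) at 1.91 ± 0.20 and 1.75 ± 0.18. The E3 ubiquitin ligases RING1 (Rru07G006380), with 34.3, 39.7 and 28.6 CPM in CK and 146, 132 and 145 CPM in HA1, and MPSR1 (Rru04G050050), which acts on misfolded proteins, rose by 2.05 ± 0.20 and 2.65 ± 0.28.

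Among the genes that fell with the lowest p were regulators of cell polarity and of actin. Rop guanine nucleotide exchange factor 14 (Rru07G032440), an activator of the small GTPases that steer cell polarity, had 23.7, 17.3 and 24.6 CPM in CK and 6.82, 6.26 and 6.57 CPM in HA1, and it fell by 1.74 ± 0.19. ABIL2 (Rru01G054470), a part of the complex that starts actin branching, fell by 1.83 ± 0.23. MID1-COMPLEMENTING ACTIVITY 1 (Rru02G013630), a calcium channel that answers to stretch of the membrane, fell by 1.80 ± 0.23, with 85.8, 77.4 and 113 CPM in CK and 24.4, 26.1 and 29.1 CPM in HA1. For MID1-COMPLEMENTING ACTIVITY 1 all HA1 libraries lay below the lowest control. The exporter DETOXIFICATION 12 (Rru04G044750) fell by 1.69 ± 0.22, serine carboxypeptidase-like 18 (Rru04G011420) fell by 2.11 ± 0.27, and a thioesterase of phylloquinone synthesis (Rru04G039240) fell by 1.78 ± 0.22. These 16 genes with the lowest p, rising and falling, had adjusted p of 0.00672 to 0.00912. In each leave-one-out fit other than the one without CK replicate 1 all 16 passed, and without CK replicate 1 their adjusted p was 0.0506. The 16 were chosen for low p in these same libraries, so passing again in refits was close to fixed in advance.

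Per gene length, the most abundant transcripts were those of the allergen Fra a 1-A and of metallothionein type 2, and neither passed. In the authors' deposited FPKM values Fra a 1-A (Rru04G035380) stood at 9357, 10713 and 15157 in CK and at 5843, 5327 and 6142 in HA1, with an adjusted p of 0.128. Metallothionein (Rru03G015710), which binds metals, stood at 5719, 6370 and 7674 FPKM in CK and at 3383, 3663 and 2714 FPKM in HA1, with an adjusted p of 0.0693. FPKM values did not overlap in either gene. They were used as deposited and are not on the TMM scale of the fit, where the log2 fold changes were -0.71 and -0.72. Among the 10 most abundant genes 2 passed, both upward. All the others did not pass and had negative log2 fold changes, from -0.28 to -0.94. S-adenosylmethionine synthase 5 (Rru04G038470), which makes the methyl donor of the cell and the precursor of ethylene, stood at 1237, 1763 and 944 FPKM in CK and at 3713, 3602 and 3111 FPKM in HA1, and it rose by 1.67 ± 0.34. A glycine-rich protein named A3-like in the authors' table (Rru01G044810) rose by 1.26 ± 0.36. The adjusted p values were 0.0159 to 0.0380, and without CK replicate 3 or HA1 replicate 2 neither call remained.

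Calls in the phosphate pathway included falls of a PHO1 exporter and of SPX genes and rises of purple acid phosphatases. Of 17 tested phosphate transporters 3 rose and 2 fell (2 and 3 with total-count scaling), and of 7 SPX genes 0 rose and 2 fell. In the PHO1 family, where 1 gene rose and 2 fell of 7 tested, a copy of PHO1 (Rru04G007060), which loads phosphate into the xylem, had 26.8, 21.3 and 39.7 CPM in CK and 4.70, 14.0 and 8.15 CPM in HA1, and it fell by 1.71 ± 0.53. PHO1-2 (Rru02G067390), named after a rice exporter, went the other way and rose by 0.60 ± 0.16, with 33.1, 35.0 and 27.7 CPM in CK and 51.7, 47.1 and 46.5 CPM in HA1. PHO1 had its lowest value in HA1 replicate 1 and its highest in CK replicate 3, while PHO1-2 changed little within each group. With total-count scaling the change of PHO1-2 shrank to 0.32 and did not pass, and it did not pass without a filter on low counts. An SPX-domain membrane protein of the family that holds vacuolar phosphate transporters (Rru01G030240) fell by 1.06 ± 0.29. Purple acid phosphatases had 6 rises and 0 falls among 27 tested (6 and 1 with total-count scaling), 22.2% higher against 10.9% of all genes. The rises included relatives that are classed as inactive as phosphatases, number 2 (Rru04G049200) at 1.19 ± 0.19 and number 1 (Rru04G048840) at 1.46 ± 0.37. For the first of these the values were 32.0, 28.8 and 38.0 CPM in CK and 77.6, 64.7 and 82.6 CPM in HA1. Among 29 genes of lipid remodelling 2 rose and 1 fell (2 and 2 with total-count scaling). Phospholipase D beta 1 (Rru07G020280), which cuts phospholipids, rose by 1.15 ± 0.27, and phospholipase D alpha 1 (Rru02G050930) fell by 0.68 ± 0.20, 1 rise and 1 fall among 12 tested enzymes of that name. Adjusted p ran over 0.0103 to 0.0477 and, without CK replicate 1, over 0.0508 to 0.107. Of the 7 calls, 0 passed without CK replicate 1, 7 without CK replicate 2 and 1 without CK replicate 3, while 2, 1 and 1 passed without HA1 replicates 1, 2 and 3, and 6, 5 and 7 without the libraries of the larger replacement. DESeq2 without CK replicate 1 passed 6 of them. Phospholipase D alpha 1 did not pass when the 6 libraries were fitted alone, nor did the SPX-domain membrane protein with a replicate block.

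Nitrogen uptake genes moved both ways, and few assimilation genes passed. Of 68 tested nitrate and peptide transporters 9 rose and 9 fell (6 and 16 with total-count scaling), and of 20 assimilation genes 0 rose and 3 fell, 15% lower against 10.3% of all genes (0 and 5 with total-count scaling, 1 and 4 by DESeq2, and 0 and 1 without a filter on low counts). Ammonium transporter 1 member 2 (Rru03G001700) had 69.3, 49.3 and 69.0 CPM in CK and 11.0, 25.3 and 16.0 CPM in HA1, and it fell by 1.84 ± 0.49, the only fall among 8 tested ammonium transporters beside 3 rises. That list leaned upward, with 37.5% higher against 10.9% of all genes and a median log2 fold change of 2.21. Of 8 tested genes of high-affinity nitrate transport, which serves roots at low nitrate, 4 rose and 1 fell. NRT2.1 (Rru05G050730) had 13.3, 17.0 and 10.1 CPM in CK and 22.0, 47.8 and 22.6 CPM in HA1, and it rose by 1.19 ± 0.32. Its neighbour NRT2.4 (Rru05G050760) rose by 1.17 ± 0.33, and the partner proteins NRT3.2 (Rru07G013590) and NRT3.1 (Rru07G013610) rose by 1.48 ± 0.37 and 0.98 ± 0.29. HA1 replicate 2 was the highest library for NRT2.1, NRT2.4 and NRT3.2, and without it the change of NRT2.1 was 0.73. NRT2.5 (Rru02G054850), a carrier of nitrogen-starved roots, fell by 3.02 ± 0.90, with 3.99, 0.567 and 3.50 CPM in CK and 0.205, 0.241 and 0.545 CPM in HA1. NPF7.3 (Rru01G021560), which loads nitrate into the xylem, rose by 2.08 ± 0.41, and NPF5.2 (Rru04G007530), of the same family, rose by 1.98 ± 0.36. NPF3.1 (Rru04G029350) fell by 2.54 ± 0.49, with 3.61, 4.51 and 6.70 CPM in CK and 0.867, 0.963 and 0.718 CPM in HA1. Adjoining copies of NPF2.7 (Rru05G054370 and Rru05G054380), a root nitrate exporter, fell by 1.67 ± 0.41 and 1.84 ± 0.46. NADH-dependent glutamate synthase (Rru01G054150), which with glutamine synthetase builds ammonium into amino acids, had 548, 465 and 453 CPM in CK and 232, 290.3 and 301 CPM in HA1, and it fell by 0.83 ± 0.20. A glutamine synthetase (Rru03G036830) fell by 0.68 ± 0.21. These 13 genes had adjusted p of 0.0124 to 0.0478, and of 0.0508 to 0.134 without CK replicate 1. From the 13 calls, 0 held without CK replicate 1, 11 without CK replicate 2 and 0 without CK replicate 3, while 4, 2 and 5 held without HA1 replicates 1, 2 and 3, and 11, 9 and 13 without the libraries of the larger replacement. By DESeq2 without CK replicate 1, 13 passed. NRT3.2 and NRT3.1 did not pass with total-count scaling. NRT3.1 and the glutamine synthetase did not pass with the 6 libraries alone, and the latter also lost its call with RLE size factors or no filter. Counts of near-identical neighbours such as the NPF2.7 copies are uncertain, since the treatment of shared reads and of strand is not given in the sources used here.

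Several water channels of the plasma membrane fell. Of 22 tested aquaporins 5 fell, 22.7% against 10.3% of all genes, and 1 rose, while the median of the list was 0.46. PIP2-4 (Rru05G052200) had 481, 400.1 and 405 CPM in CK and 113, 154 and 259 CPM in HA1, and it fell by 1.29 ± 0.30. Each HA1 library lay below every control, with HA1 replicate 3 nearest. A PIP-type 7a channel (Rru01G045570) fell by 1.04 ± 0.30, PIP1-3 (Rru01G033270) fell by 0.76 ± 0.18, PIP2-7 (Rru06G030680) fell by 1.30 ± 0.24, and NIP6-1 (Rru02G045450), a boron channel in Arabidopsis, fell by 1.94 ± 0.34. These are all the falls in the list. Among 32 potassium transport genes 4 rose and 7 fell (1 and 10 with total-count scaling and 10 and 8 by DESeq2). Potassium transporter 8 (Rru02G076270) fell by 1.90 ± 0.44, and the channel subunit KAT3 (Rru06G062870) fell by 0.91 ± 0.26. HKT1 (Rru05G050000), which draws sodium back out of the xylem, had 17.9, 3.57 and 18.6 CPM in CK and 0.434, 1.14 and 2.27 CPM in HA1, and it fell by 3.39 ± 0.81. CK replicate 2 lay far below the other controls and still above every HA1 library. Sulfate transporter 3.4 (Rru02G049090), which in rice and Arabidopsis acts on phosphate distribution, fell by 1.54 ± 0.31.

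Genes of proton pumping, a known point of action of humic acids in maize roots, had 2 rises and 3 falls among 43 tested (1 and 4 with total-count scaling and 8 and 3 by DESeq2). By edgeR with TMM scaling 11.6% were called, against 21.2% of all genes. The rises were 2 of 3 copies of proton pump-interactor 1, a regulator of the plasma-membrane pump, of which Rru07G034850 rose by 1.19 ± 0.19. The vacuolar pyrophosphate-driven pump (Rru03G008210) had 702, 425 and 921 CPM in CK and 219, 238 and 345 CPM in HA1, and it fell by 1.35 ± 0.31. Metal handling genes were even at 7 rises and 7 falls among 60 (5 and 17 with total-count scaling). Metal tolerance protein 8 (Rru02G075480), a manganese carrier of the vacuole in rice, had 9.49, 11.6 and 8.18 CPM in CK and 35.6, 38.0 and 36.9 CPM in HA1, and it rose by 1.91 ± 0.21. YSL7 (Rru07G000310), of the family that moves metal-nicotianamine complexes, had 48.4, 146 and 41.2 CPM in CK and 274, 343 and 366 CPM in HA1, and it rose by 2.06 ± 0.47. The controls of metal tolerance protein 8 were tight, and those of YSL7 were spread, with CK replicate 2 high. Nramp2 (Rru06G059620) and zinc transporter 6 (Rru05G062860) rose by 1.31 ± 0.22 and 1.49 ± 0.19, and zinc transporter 1 (Rru05G017820), an uptake carrier, fell by 4.09 ± 0.74, with 8.98, 4.08 and 2.19 CPM in CK and 0.137, 0.391 and 0.373 CPM in HA1. Over the 16 water, ion and metal genes named the adjusted p was 0.00689 to 0.0386, and 0.0506 to 0.0971 without CK replicate 1. Among the 16 calls, 0 remained without CK replicate 1, 16 without CK replicate 2 and 6 without CK replicate 3, while 9, 6 and 13 remained without HA1 replicates 1, 2 and 3, and 16, 14 and 16 without the libraries of the larger replacement, and DESeq2 without CK replicate 1 passed 15. The change of YSL7 was 2.83 without CK replicate 2, that of HKT1 was -4.10 without HA1 replicate 3, and that of zinc transporter 1 was -3.39 by DESeq2 without CK replicate 1.

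Calcium pumps rose in 10 of 44 tested genes and fell in 2 (6 and 5 with total-count scaling), 22.7% higher against 10.9% of all genes. Among them were 4 of 13 tested copies named after calcium-transporting ATPase 13, which pumps calcium out of the cell. The copy Rru04G002810 had 6.20, 16.8 and 4.28 CPM in CK and 51.1, 67.7 and 103 CPM in HA1, and it rose by 3.02 ± 0.64. The copies Rru04G002740 and Rru04G002850 rose by 2.51 ± 0.57 and 3.03 ± 0.52. In each of these 3 copies the HA1 libraries were above all controls, and these counts are uncertain for the reason given for NPF2.7. Calcium sensors moved both ways, 12 up and 10 down among 66 (7 and 14 with total-count scaling). Calmodulin-2 (Rru03G003710), a small protein that binds calcium and switches on its partners, had 2.36, 2.52 and 1.95 CPM in CK and 10.5, 10.8 and 10.7 CPM in HA1, and it rose by 2.23 ± 0.27. Calcium-dependent protein kinases 5 (Rru06G033320), 10 (Rru07G003440) and 3 (Rru07G017160) rose by 1.81 ± 0.38, 1.16 ± 0.21 and 1.20 ± 0.28, while 4 rose and 3 fell among all 20 tested kinases of that name. The calcineurin B-like sensor 7 (Rru07G015430) fell by 0.92 ± 0.17, and copies of sensor 10 (Rru02G053450 and Rru02G053440), part of a salt-tolerance pathway, fell by 1.23 ± 0.27 and 2.08 ± 0.56. The 10 genes had adjusted p of 0.00884 to 0.0331 and, without CK replicate 1, 0.0506 to 0.108. Out of 10 calls, 0 passed without CK replicate 1, 10 without CK replicate 2 and 3 without CK replicate 3, while 7, 3 and 7 passed without HA1 replicates 1, 2 and 3. When DESeq2 was run without CK replicate 1, 10 passed. Without CK replicate 2 the changes of the ATPase copies Rru04G002810 and Rru04G002740 were 3.77 and 3.24. The sensor 10 copy Rru02G053440 did not pass with a replicate block.

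**Figure D3:**
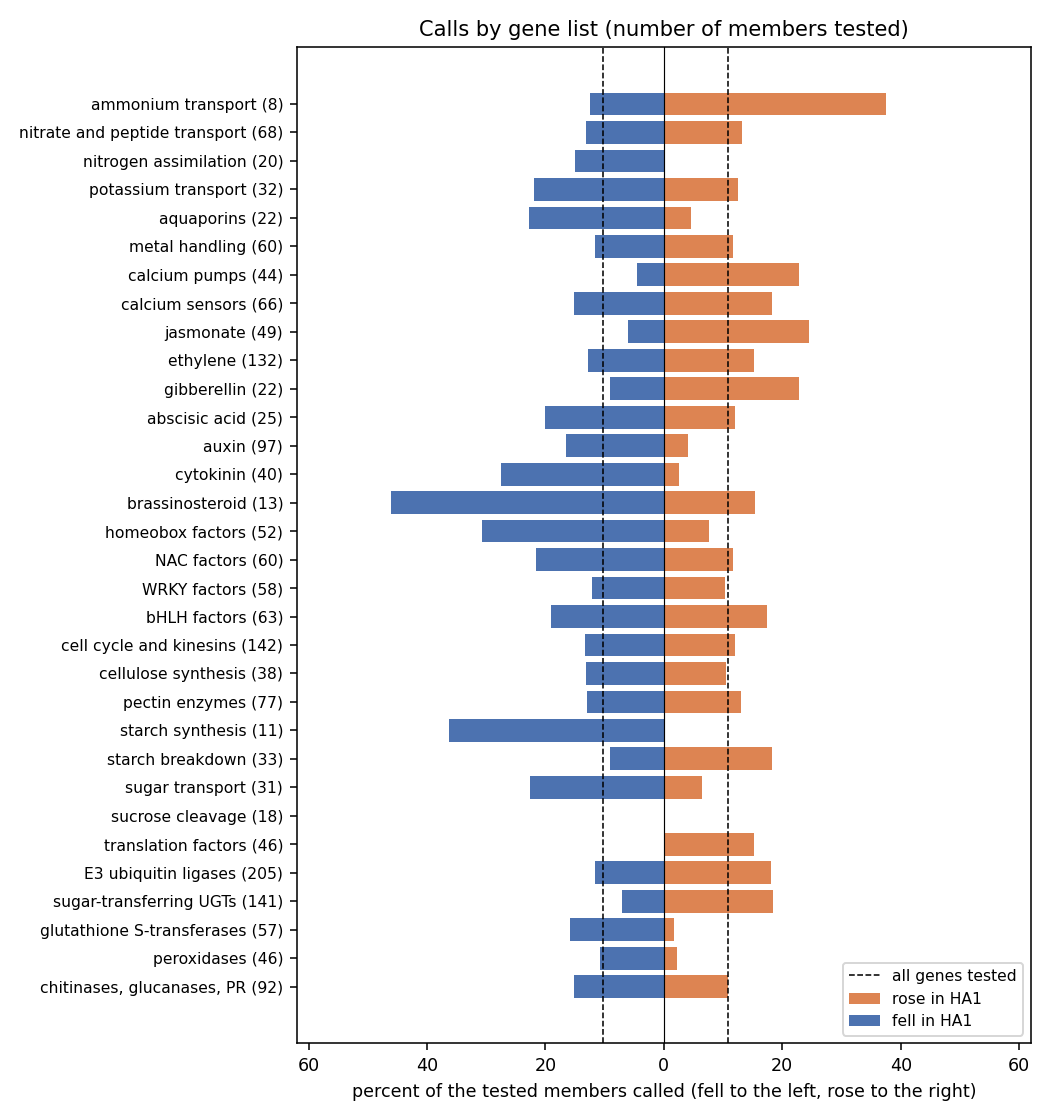
Bars give the percent of the tested members of each gene list that rose (orange, to the right) or fell (blue, to the left) in HA1 with TMM scaling, with the number tested in parentheses and dashed lines at the shares of all genes tested (10.9% and 10.3%). Cytokinin, brassinosteroid, homeobox and starch synthesis genes extend past the line for falls, and jasmonate genes and calcium pumps past the line for rises.

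Cytokinin genes that passed were nearly all lower. Cytokinins are made in roots by isopentenyltransferases, sent to the shoot, and read by a phosphorelay that ends at response regulators. Of 40 tested genes 11 fell, 27.5% against 10.3% of all genes, and 1 rose (1 and 16 with total-count scaling), with a median of -0.44. Of 3 isopentenyltransferases 2 fell. Isopentenyltransferase 3 (Rru06G042660), which starts cytokinin synthesis, had 10.3, 3.88 and 6.91 CPM in CK and 1.37, 0.993 and 0.689 CPM in HA1, and it fell by 2.78 ± 0.57. ABCG14 (Rru06G055390), the exporter that sends cytokinin from root to shoot in Arabidopsis and a member of the transporter list, had 40.8, 15.9 and 33.2 CPM in CK and 4.45, 6.20 and 5.57 CPM in HA1, and it fell by 2.47 ± 0.42. In both genes CK replicate 2 was the lowest control and still lay above every HA1 library. Histidine-containing phosphotransfer protein 1 (Rru03G005130), the middle step of the relay, fell by 1.32 ± 0.19, with 18.8, 18.7 and 17.5 CPM in CK and 6.53, 7.16 and 8.32 CPM in HA1, and response regulator ORR23 (Rru06G051080) fell by 1.95 ± 0.37, 1 of 5 falls and 0 rises among 19 regulators. The dehydrogenases that break cytokinin down split, number 6 (Rru01G005110) being the single rise at 1.19 ± 0.25 and number 7 (Rru06G062160) falling by 1.30 ± 0.38. Adjusted p for the 6 genes was 0.00973 to 0.0414, and 0.0506 to 0.114 without CK replicate 1. Of the 6 calls, 0 held without CK replicate 1, 6 without CK replicate 2 and 2 without CK replicate 3, while 4, 3 and 6 held without HA1 replicates 1, 2 and 3, and 5, 5 and 6 without the libraries of the larger replacement. DESeq2 without CK replicate 1 passed 5 of them. Dehydrogenase 7 did not pass with the 6 libraries alone.

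Auxin and brassinosteroid genes that passed were also mostly lower. The auxin list had 16 falls and 4 rises among 97 (2 and 29 with total-count scaling), 16.5% lower. IAA27 (Rru02G006500), a repressor that auxin destroys, had 187, 153 and 245 CPM in CK and 62.1, 63.2 and 66.2 CPM in HA1, and it fell by 1.61 ± 0.33. The related IAA13 (Rru04G008470) fell by 1.91 ± 0.42, the response factor ARF19 (Rru02G010840), which drives lateral rooting, fell by 0.98 ± 0.25, and the receptor AFB2 (Rru02G080560) fell by 1.03 ± 0.31. The influx carrier LAX2 (Rru06G002210) fell by 2.38 ± 0.47. The auxin-repressed 12.5 kDa protein (Rru05G007550), a growth and dormancy marker first described in strawberry, had 748, 502 and 1209 CPM in CK and 57.8, 119 and 256 CPM in HA1, and it fell by 2.51 ± 0.56. GH3.1 (Rru02G021580), of the family that ties auxin to amino acids, rose by 1.77 ± 0.32. Its HA1 values were 27.3, 20.5 and 53.8 CPM, so HA1 replicate 3 stood above the other 2. Of 13 brassinosteroid genes 6 fell and 2 rose (1 and 7 with total-count scaling), 46.2% lower, with a median of -1.18. BRI1-like 2 (Rru07G035060), a vascular receptor kinase, had 20.7, 5.67 and 20.6 CPM in CK and 1.32, 1.14 and 1.72 CPM in HA1, and it fell by 3.49 ± 0.62. BRI1-like 1 (Rru05G066390) fell by 1.77 ± 0.34, and BRI1 kinase inhibitor 1 (Rru06G058450), a brake on the receptor, fell by 2.88 ± 0.83. The co-receptor BAK1 (Rru07G043730) rose by 1.09 ± 0.24. These 11 genes had adjusted p of 0.0123 to 0.0458, and of 0.0508 to 0.101 without CK replicate 1. From the 11 calls, 0 remained without CK replicate 1, 11 without CK replicate 2 and 2 without CK replicate 3, while 4, 1 and 7 remained without HA1 replicates 1, 2 and 3, and 10, 9 and 11 without the libraries of the larger replacement. By DESeq2 without CK replicate 1, 11 passed. Without HA1 replicate 3 the changes of BRI1 kinase inhibitor 1 and the auxin-repressed protein were -4.10 and -3.21. The change of LAX2 was -1.74 by DESeq2 without CK replicate 1, and that of BRI1 kinase inhibitor 1 was -2.28 without CK replicate 3.

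Jasmonate genes that passed were mostly higher. Jasmonate is a stress hormone made from membrane lipids, and TIFY (JAZ) repressors are among the first genes it switches on. Of 49 tested 12 rose, 24.5% against 10.9%, and 3 fell, with a median of 1.20. Allene oxide cyclase (Rru04G046530), of the plastid steps of synthesis, had 88.3, 249 and 40.5 CPM in CK and 1027, 1104 and 1041 CPM in HA1, and it rose by 3.07 ± 0.70. The later enzyme 12-oxophytodienoate reductase 3 (Rru02G009860) rose by 1.62 ± 0.49, with 162, 232 and 47.9 CPM in CK and 478, 458 and 419 CPM in HA1. Controls of both enzymes spread widely, with CK replicate 2 highest and CK replicate 3 lowest, and HA1 libraries lay close together. TIFY 10A (Rru02G010750) and TIFY 6B (Rru07G001270) rose by 1.96 ± 0.48 and 1.86 ± 0.36, and 2 other TIFY genes of 10 fell. The ethylene list had 20 rises and 17 falls among 132 (14 and 19 with total-count scaling). ERF110 (Rru06G026330), a factor of the ethylene response family, had 3.29, 49.7 and 4.16 CPM in CK and 423, 491 and 782 CPM in HA1, and it rose by 4.89 ± 1.20. CK replicate 2 was far above the other controls here too, and without it the change of ERF110 was 7.20 and that of allene oxide cyclase 3.99.

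Abscisic acid and gibberellin genes moved both ways. Of 25 abscisic acid genes 3 rose and 5 fell. The receptor PYL1 (Rru07G027890) rose by 2.08 ± 0.49. NCED1 (Rru05G021930), the limiting enzyme of abscisic acid synthesis, had 146, 116 and 91.5 CPM in CK and 21.5, 49.4 and 61.5 CPM in HA1, and it fell by 1.42 ± 0.35. Its relative NCED6 (Rru04G010000) fell by 2.70 ± 0.69. The gibberellin list had 5 rises and 2 falls among 22. Gibberellin 2-beta-dioxygenase 6 (Rru04G056180), which inactivates the hormone, had 1.04, 15.2 and 0.847 CPM in CK and 96.8, 61.3 and 73.2 CPM in HA1, and it rose by 3.77 ± 1.03. CK replicate 2 was far above the other 2 controls in this gene, and without it the change was 6.30. DELLA repressors of growth went apart, GAIP-B (Rru04G053600) at 1.38 ± 0.27 and GAI (Rru03G038580) at -2.11 ± 0.64. D14 (Rru02G006100), the strigolactone receptor, had 8.73, 7.97 and 10.3 CPM in CK and 2.26, 3.28 and 2.61 CPM in HA1, and it fell by 1.73 ± 0.28. The 12 genes of this paragraph and the last had adjusted p of 0.0103 to 0.0455, and of 0.0506 to 0.115 without CK replicate 1. Among the 12 calls, 0 passed without CK replicate 1, 12 without CK replicate 2 and 1 without CK replicate 3, while 4, 2 and 5 passed without HA1 replicates 1, 2 and 3, and 11, 9 and 12 without the libraries of the larger replacement, and DESeq2 without CK replicate 1 passed 12. Without CK replicate 2 the change of PYL1 was 2.82, and without HA1 replicate 2 that of NCED6 was -3.62. The reductase Rru02G009860 did not pass with the 6 libraries alone.

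**Figure D4:**
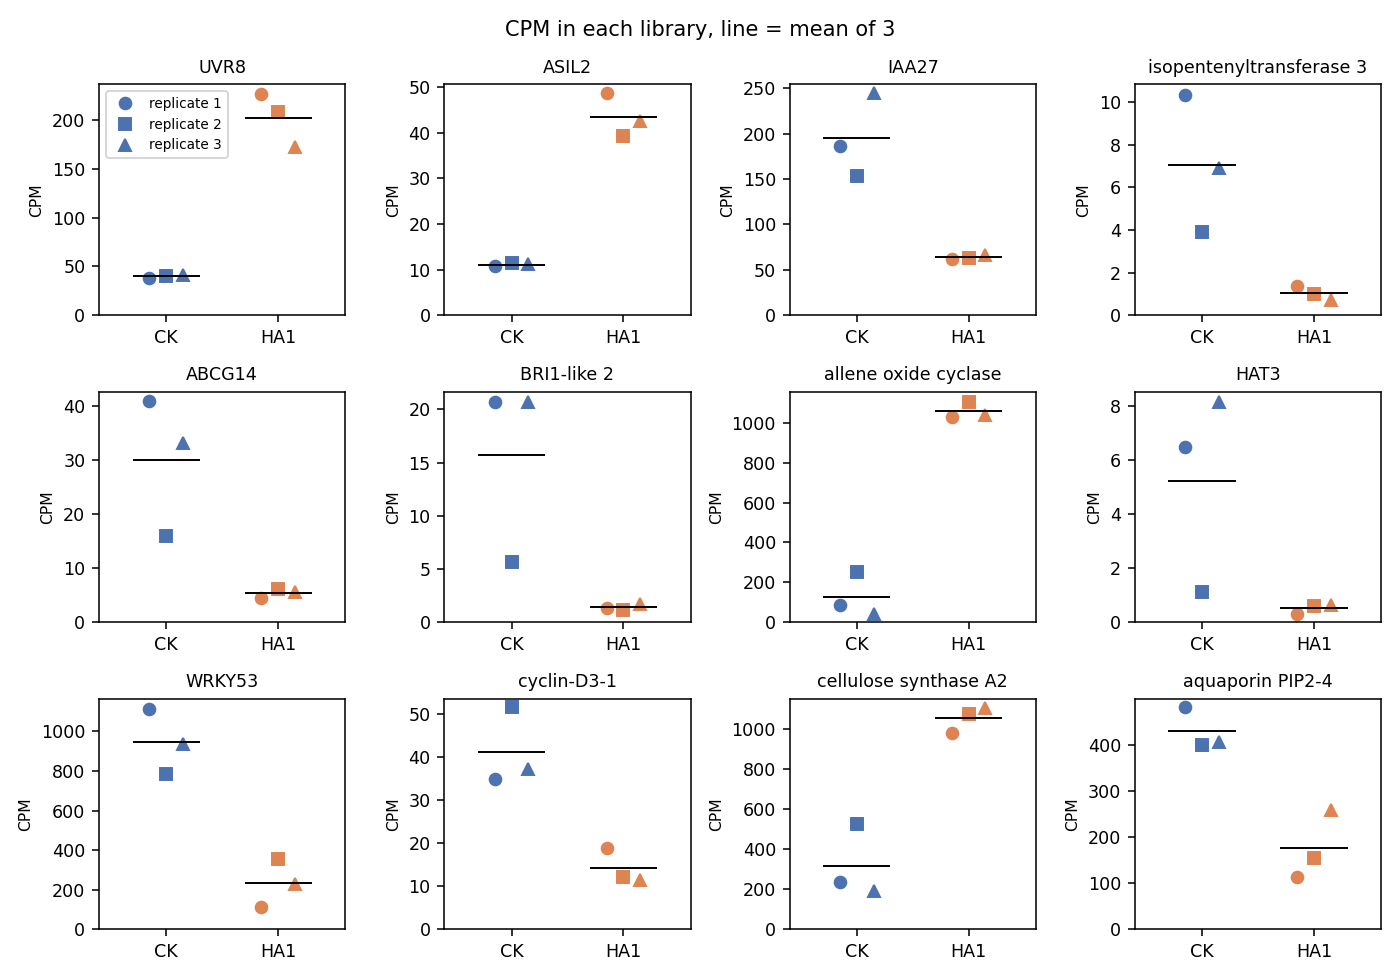
Each panel shows the CPM of 1 gene in the 3 CK (blue) and 3 HA1 (orange) libraries, with the replicate number given by the symbol and the group mean by a line, on axes that start at 0. In UVR8 and ASIL2 the controls lie close together, whereas in BRI1-like 2, HAT3, ABCG14 and allene oxide cyclase CK replicate 2 is the control nearest to HA1.

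Homeobox factors, which set cell identity in meristems, vessels and root hairs, had mostly falls among their calls. Of 52 tested 16 fell, 30.8% against 10.3%, and 4 rose (2 and 24 with total-count scaling), and the median was -0.89. HAT3 (Rru01G025320) had 6.50, 1.11 and 8.16 CPM in CK and 0.297, 0.602 and 0.632 CPM in HA1, and it fell by 3.37 ± 0.73. WUSCHEL-related homeobox 4 (Rru06G059000), which keeps the vascular cambium dividing, had 9.24, 3.97 and 13.7 CPM in CK and 2.33, 1.02 and 0.947 CPM in HA1, and it fell by 2.63 ± 0.57. In both genes CK replicate 2 held the lowest control value. ATHB-8 (Rru06G057400), a marker of early vascular cells, fell by 1.33 ± 0.36, ATHB-14 (Rru05G013900) fell by 1.50 ± 0.27, and GLABRA 2 (Rru02G048240), which keeps root epidermal cells hairless in Arabidopsis, fell by 0.93 ± 0.19. A knotted-1-like gene (Rru03G008310) fell by 2.26 ± 0.61. Rises were found for HAT14 (Rru03G027370), with 18.8, 50.6 and 20.2 CPM in CK and 121, 172 and 186 CPM in HA1, at 2.42 ± 0.50, and for HAT4 (Rru07G023950) at 2.40 ± 0.56. Adjusted p was 0.0126 to 0.0331 for these 8 genes, and 0.0512 to 0.115 without CK replicate 1. Out of 8 calls, 0 held without CK replicate 1, 8 without CK replicate 2 and 1 without CK replicate 3, while 3, 1 and 5 held without HA1 replicates 1, 2 and 3, and 8, 7 and 8 without the libraries of the larger replacement. When DESeq2 was run without CK replicate 1, 7 passed. The knotted-1-like gene did not pass with a replicate block, and its change was -1.56 by DESeq2 without CK replicate 1.

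Other transcription factor families split. NAC factors fell in 13 and rose in 7 of 60 (4 and 20 with total-count scaling). Among the falls were switches of secondary wall and vessel formation. NAC43 (Rru07G009100) had 7.66, 4.11 and 7.13 CPM in CK and 0.593, 0.963 and 0.861 CPM in HA1, and it fell by 2.97 ± 0.50, while NAC37 (Rru02G014520) and NAC7 (Rru01G049320), of the vessel-forming VND group, fell by 1.49 ± 0.28 and 1.07 ± 0.25. WRKY factors, regulators of defence and senescence, were even at 6 up and 7 down of 58 (6 and 12 with total-count scaling). WRKY53 (Rru07G016290) had 1116, 784 and 936 CPM in CK and 114, 355 and 228 CPM in HA1, and it fell by 2.02 ± 0.49. WRKY24 (Rru03G011800) had 1237, 987 and 1057 CPM in CK and 119, 487 and 298 CPM in HA1, and it fell by 1.86 ± 0.53. In both genes HA1 replicate 1 was lowest and HA1 replicate 2 highest of its group. WRKY46 (Rru01G035720) fell by 1.95 ± 0.48, and WRKY6 (Rru02G066440), which represses PHO1 in Arabidopsis, rose by 1.71 ± 0.26, with 52.2, 80.2 and 41.1 CPM in CK and 208, 204 and 157 CPM in HA1. TGA9 (Rru05G037640) fell by 1.80 ± 0.37. LOB-domain factors that repress nitrate genes in Arabidopsis went apart, LBD38 (Rru02G022030) at 2.19 ± 0.36 and LBD39 (Rru06G059900) at -1.53 ± 0.31. Among 63 bHLH factors 11 rose and 12 fell (9 and 17 with total-count scaling). The factor bHLH25 (Rru06G003630) rose by 2.88 ± 0.68, with CK replicate 2 the highest control and a change of 4.14 without it, and bHLH93 (Rru02G024250) fell by 3.12 ± 0.49, or -2.44 as a signed change without CK replicate 3. These 12 factors had adjusted p of 0.00982 to 0.0379, and of 0.0506 to 0.101 without CK replicate 1. Of the 12 calls, 0 remained without CK replicate 1, 12 without CK replicate 2 and 5 without CK replicate 3, while 6, 5 and 9 remained without HA1 replicates 1, 2 and 3, and 12, 11 and 12 without the libraries of the larger replacement. DESeq2 without CK replicate 1 passed 12 of them.

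Cell wall and cell cycle lists had near-equal rises and falls with TMM scaling. Cellulose synthesis had 4 rises and 5 falls among 38 (2 and 12 with total-count scaling). CESA2 (Rru06G026630), a subunit for primary walls, had 238, 525 and 191 CPM in CK and 982, 1076 and 1107 CPM in HA1, and it rose by 1.73 ± 0.42. CESA1 (Rru06G049610), its partner in the same complex, had 589.7, 747 and 604 CPM in CK and 1196, 1268 and 1118 CPM in HA1, and it rose by 0.88 ± 0.22. CK replicate 2 was the highest control in both, and the other 6 of 8 tested subunits of this kind did not pass. Expansin-A6 (Rru05G058130), which loosens walls, fell by 1.76 ± 0.35, 1 of 3 falls and 1 rise in 14 tested expansins. Pectinesterase 51 (Rru02G033470) rose by 1.84 ± 0.27, and another pectinesterase (Rru05G003130) fell by 1.77 ± 0.40, in a list with 10 rises and 10 falls among 77 (7 and 16 with total-count scaling). Receptor kinases tied to the cell wall also went apart, FERONIA (Rru03G010670) at 1.04 ± 0.30 and FEI 1 (Rru07G003530) at -2.25 ± 0.34.

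Among 142 cell cycle and kinesin genes 17 rose and 19 fell (8 and 39 with total-count scaling). D-type cyclins, which start the cycle in answer to hormones and sugar, fell in 6 and rose in 0 of 10 tested, where 10.3% of all genes fell. That subgroup was formed after the values were seen. Cyclin-D3-1 (Rru06G009370) had 34.8, 51.5 and 37.2 CPM in CK and 18.9, 12.1 and 11.3 CPM in HA1, and it fell by 1.54 ± 0.25. Cyclins D3-3 (Rru02G021220) and D1-1 (Rru04G054330) fell by 1.38 ± 0.25 and 1.75 ± 0.31. The rises in the list included single genes that act later. A copy of the mitotic kinase CDKB1-1 (Rru03G010180), the single rise among 4 tested copies, had 22.0, 20.9 and 21.9 CPM in CK and 61.2, 46.9 and 43.3 CPM in HA1, and it rose by 1.23 ± 0.20, and PCNA (Rru05G060520), the clamp of DNA replication, rose by 1.53 ± 0.30. A linker histone H1 (Rru02G014510) fell by 1.96 ± 0.48, while all 38 tested histone genes had 3 rises and 1 fall (0 and 4 with total-count scaling). The 13 wall and cycle genes had adjusted p of 0.00973 to 0.0394, and of 0.0506 to 0.136 without CK replicate 1. From the 13 calls, 0 passed without CK replicate 1, 13 without CK replicate 2 and 8 without CK replicate 3, while 8, 4 and 10 passed without HA1 replicates 1, 2 and 3, and 12, 12 and 13 without the libraries of the larger replacement. By DESeq2 without CK replicate 1, 13 passed. CESA1 and FERONIA did not pass with total-count scaling, nor did FERONIA with the 6 libraries alone.

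In carbon metabolism some starch synthesis genes fell and some starch breakdown genes rose. Of 11 tested synthesis genes 4 fell and 0 rose (0 and 7 with total-count scaling), 36.4% against 10.3%, with a median of -0.89. Starch breakdown had 6 rises and 3 falls among 33 (4 and 4 with total-count scaling). Alpha-amylase 2 (Rru06G054820) had 96.5, 122 and 59.1 CPM in CK and 363, 312 and 222 CPM in HA1, and it rose by 1.69 ± 0.32. Beta-amylases 1 (Rru04G009000) and 7 (Rru01G032970), the latter a nuclear regulator in Arabidopsis, rose by 1.53 ± 0.36 and 1.97 ± 0.44. A starch phosphorylase (Rru02G072620) had 1607, 942 and 2485 CPM in CK and 412, 701 and 303 CPM in HA1, and it fell by 1.83 ± 0.52. HA1 libraries of these genes lay outside the control range in every case, as in all 12 carbon genes named and 45.0% of all genes tested. Control values differed over 2-fold for alpha-amylase 2 and the phosphorylase. Sugar transporters fell in 7 and rose in 2 of 31 (1 and 9 with total-count scaling). Copies of SWEET17, a vacuolar fructose carrier in Arabidopsis roots, went apart, with Rru04G034450 at 1.75 ± 0.45 and Rru01G023810 at -1.92 ± 0.26. The sucrose and glucose carrier SWEET14 (Rru06G044010) fell by 2.25 ± 0.43. Of 18 tested genes of sucrose cleavage 0 passed by edgeR, with 6 at an unadjusted p under 0.05. With total-count scaling 0 rose and 2 fell, and by DESeq2 2 rose and 2 fell.

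Few citrate cycle and glycolysis genes passed. A copy of citrate synthase (Rru01G000400), the entry step and the single call among 5 tested copies, had 132, 127 and 87.7 CPM in CK and 391, 405 and 414 CPM in HA1, and it rose by 1.80 ± 0.51. A regulatory subunit of isocitrate dehydrogenase (Rru06G032710) rose by 1.09 ± 0.20. Of 35 citrate cycle genes 4 rose and 1 fell (2 and 2 with total-count scaling), 11.4% higher against 10.9% of all genes. In glycolysis 3 rose and 1 fell of 52 (1 and 6 with total-count scaling). Phosphofructokinase 3 (Rru02G007500) rose by 1.79 ± 0.48, and pyruvate kinase 1 (Rru03G020330) rose by 1.32 ± 0.41. Phosphoenolpyruvate carboxylase 2 (Rru02G042430), which feeds malate and other organic acids that roots release under low phosphate, had 203, 274 and 475 CPM in CK and 113, 166 and 130.0 CPM in HA1, and it fell by 1.22 ± 0.35. The HA1 values lay below each control, with CK replicate 3 far above the rest. Over the 12 carbon genes of this paragraph and the last the adjusted p was 0.00930 to 0.0496, and 0.0506 to 0.148 without CK replicate 1. Among the 12 calls, 0 held without CK replicate 1, 10 without CK replicate 2 and 1 without CK replicate 3, while 5, 3 and 5 held without HA1 replicates 1, 2 and 3, and 11, 9 and 12 without the libraries of the larger replacement, and DESeq2 without CK replicate 1 passed 11. Pyruvate kinase 1 did not pass with total-count scaling, with no filter or with the 6 libraries alone, nor did the starch phosphorylase with a replicate block. Without CK replicate 2 the change of beta-amylase 7 was 2.63.

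Genes for making, folding and removing proteins had more rises than falls with TMM scaling, and this balance changed with the scaling. E3 ubiquitin ligases, which mark proteins for breakdown, had 37 rises and 24 falls among 205 (24 and 49 with total-count scaling). This was 18.0% higher against 10.9% of all genes. RING1-like (Rru02G077690) and AIP2 (Rru06G055600), which in Arabidopsis removes the abscisic acid factor ABI3, rose by 1.40 ± 0.17 and 1.11 ± 0.14. For AIP2 the values were 20.3, 20.7 and 21.3 CPM in CK and 46.6, 40.4 and 47.4 CPM in HA1. Translation factors rose in 7 and fell in 0 of 46 (3 and 3 with total-count scaling), 15.2% higher against 10.9% of all genes. Initiation factor 3 subunit D (Rru05G041400) had 87.6, 98.3 and 82.3 CPM in CK and 227, 189 and 174 CPM in HA1, and it rose by 1.14 ± 0.20, and factor 4B2 (Rru04G044260) rose by 0.97 ± 0.16. Ribosomal proteins rose in 9 and fell in 1 of 193 (2 and 1 with total-count scaling), 4.66% higher and so under the 10.9% of all genes. Proteasome genes rose in 2 and fell in 0 of 51 (0 and 1 with total-count scaling). Calls in either direction made up 15.2% of translation factors, 5.18% of ribosomal proteins and 3.92% of proteasome genes, against 21.2% of all genes. Autophagy genes rose in 5 and fell in 2 of 26 (0 and 4 with total-count scaling), 19.2% higher. The autophagy protease ATG4 (Rru06G012490) rose by 1.54 ± 0.28, and ATG16 (Rru07G012950) rose by 0.70 ± 0.13, or 0.41 with total-count scaling, where it did not pass. Heat shock genes had 21 rises and 14 falls among 130 (13 and 27 with total-count scaling), 16.2% higher and 10.8% lower. The chaperone HSP90-2 (Rru05G067410) had 694, 515 and 551 CPM in CK and 2237, 1581 and 1071 CPM in HA1, and it rose by 1.47 ± 0.30. The factor HSFA5 (Rru04G026230) rose by 1.53 ± 0.28, and the thioredoxin-fold protein TTL3 (Rru02G042150), of a family that acts in brassinosteroid signalling and osmotic stress, rose by 1.78 ± 0.27. The 9 genes had adjusted p of 0.00842 to 0.0161, and of 0.0506 to 0.0623 without CK replicate 1. Out of 9 calls, 0 remained without CK replicate 1, 9 without CK replicate 2 and 4 without CK replicate 3, while 9, 6 and 9 remained without HA1 replicates 1, 2 and 3. When DESeq2 was run without CK replicate 1, 9 passed.

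In secondary metabolism genes of the early terpenoid pathway changed in both directions. Farnesyl pyrophosphate synthase 1 (Rru05G000330), which makes the precursor of sterols and sesquiterpenes, had 127, 385 and 80.9 CPM in CK and 1331, 1398 and 1473 CPM in HA1, and it rose by 2.82 ± 0.69. HMG-CoA reductase, the limiting enzyme ahead of it, was split by copy, 2 rising and 3 falling of 10 tested. The copy Rru02G011820 had 62.4, 121 and 56.6 CPM in CK and 263, 330.1 and 266 CPM in HA1, and it rose by 1.84 ± 0.30. The copy Rru06G033550 had 1283, 468 and 1433 CPM in CK and 119, 191 and 181 CPM in HA1, and it fell by 2.70 ± 0.64. For farnesyl pyrophosphate synthase 1 and both reductases CK replicate 2 was the control nearest to HA1, and no HA1 library reached the control range. Without CK replicate 2 the change of the synthase was 3.71. Across 70 terpenoid genes 8 rose and 10 fell (7 and 17 with total-count scaling). Phenylpropanoid and lignin genes had 9 rises and 11 falls among 123 (7 and 20 with total-count scaling), 16.3% called against 21.2% of all genes. Cinnamate 4-monooxygenase (Rru05G065420), an early enzyme of the pathway, had 666, 501 and 499 CPM in CK and 296, 307 and 303 CPM in HA1, and it fell by 0.88 ± 0.19. A cinnamoyl-CoA reductase named after SNL6 (Rru07G028350), a defence enzyme of rice, fell by 2.34 ± 0.34, and cytochrome P450 84A1 (Rru02G014750), the ferulate 5-hydroxylase of syringyl lignin, rose by 1.34 ± 0.21. Glycosyltransferases that attach sugars to small molecules rose in 26 and fell in 10 of 141 (19 and 21 with total-count scaling), 18.4% higher against 10.9% of all genes. UGT87A1 (Rru05G063770) had 5.39, 6.24 and 5.69 CPM in CK and 25.3, 19.0 and 24.9 CPM in HA1, and it rose by 2.00 ± 0.22, and UGT91C1 (Rru02G009180) rose by 2.53 ± 0.39. Cytochromes P450 fell in 26 and rose in 14 of 163 (13 and 40 with total-count scaling), 16.0% lower against 10.3% of all genes. Glutathione S-transferases, which detoxify reactive compounds, fell in 9 and rose in 1 of 57 (1 and 17 with total-count scaling). Falls made up 15.8% against 10.3% of all genes, and calls in either direction 17.5% against 21.2%. In that list parC (Rru05G021320) fell by 1.27 ± 0.29. These 9 genes had adjusted p of 0.00745 to 0.0252, and of 0.0506 to 0.0912 without CK replicate 1. Of the 9 calls, 0 passed without CK replicate 1, 9 without CK replicate 2 and 6 without CK replicate 3, while 6, 5 and 6 passed without HA1 replicates 1, 2 and 3. DESeq2 without CK replicate 1 passed 9 of them.

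Defence genes moved both ways. Chitinases, glucanases and other pathogenesis-related genes had 10 rises and 14 falls among 92. Endochitinase EP3 (Rru05G011840), which cuts fungal chitin, had 5.20, 23.6 and 4.54 CPM in CK and 80.7, 81.4 and 119 CPM in HA1, and it rose by 3.08 ± 0.67, and its neighbour (Rru05G011880) rose by 3.66 ± 0.83, 2 of 3 rises among 6 tested copies. Beta-1,3-glucanase 14 (Rru05G038100) had 51.5, 58.9 and 51.2 CPM in CK and 243, 248 and 332 CPM in HA1, and it rose by 2.35 ± 0.43, whereas glucanase 13 (Rru02G007370) fell by 2.00 ± 0.34 and thaumatin-like protein 1 (Rru06G002180) fell by 2.56 ± 0.47. Controls of glucanase 14 were tight, and those of the endochitinases were spread, with CK replicate 2 high. Without that control the changes of Rru05G011840 and Rru05G011880 were 4.22 and 5.40. Class III peroxidases fell in 5 and rose in 1 of 46 (1 and 8 with total-count scaling). Peroxidase 42 (Rru05G002510) had 759.7, 465 and 747 CPM in CK and 138, 149 and 290.2 CPM in HA1, and it fell by 1.77 ± 0.41. Peroxidase 21 (Rru03G017780) fell by 2.47 ± 0.60. Disease resistance genes, receptors inside the cell for pathogen proteins, rose in 84 and fell in 50 of 595 (47 and 96 with total-count scaling). A homolog of tobacco protein N (Rru06G020410) had 29.7, 33.9 and 25.4 CPM in CK and 96.4, 109 and 112 CPM in HA1, and it rose by 1.83 ± 0.22. An RPV1-type gene (Rru04G017680) fell by 1.93 ± 0.32. Receptor kinases were even, with 63 rises and 65 falls among 575 (48 and 102 with total-count scaling). Adjusted p for the 9 genes was 0.00875 to 0.0249, and 0.0506 to 0.0702 without CK replicate 1. From the 9 calls, 0 held without CK replicate 1, 9 without CK replicate 2 and 3 without CK replicate 3, while 6, 4 and 8 held without HA1 replicates 1, 2 and 3. By DESeq2 without CK replicate 1, 9 passed.

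Genes of arbuscular mycorrhiza, the root symbiosis that delivers phosphate from soil fungi, had a low sum in CK and an uneven sum in HA1. The 10 listed genes summed to 3.04, 1.90 and 2.40 CPM in CK and to 66.5, 21.4 and 4.79 CPM in HA1. HA1 replicate 1 was therefore far above HA1 replicate 3, which was close to the controls. Of 9 tested 3 rose and 0 fell by edgeR, and 6 and 0 did so by DESeq2. With the 6 libraries of CK and HA1 alone 5 passed the filter on low counts, and 3 of these rose and 0 fell. By edgeR 0 rose without CK replicate 1 or CK replicate 3, and 1 rose without CK replicate 2, HA1 replicate 1 or HA1 replicate 2. DESeq2 without CK replicate 1 called 6 of them higher. RAM2 (Rru06G015850), which makes lipid precursors that pass to the fungus, had 1.63, 1.81 and 1.46 CPM in CK and 6.62, 5.21 and 3.73 CPM in HA1. It rose by 1.66 ± 0.28, with an adjusted p of 0.0109 by edgeR's quasi-likelihood test, or 0.0513 without CK replicate 1. Without CK replicate 3 it did not pass either. This gene held most of the sum in each control and was more even across HA1 than the sum, so it does not stand for the list. The part of fungal colonisation in the other changes was not tested, and in roots sequenced whole a change in the number of cells of a type and a change per cell cannot be told apart.

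**Figure D5:**
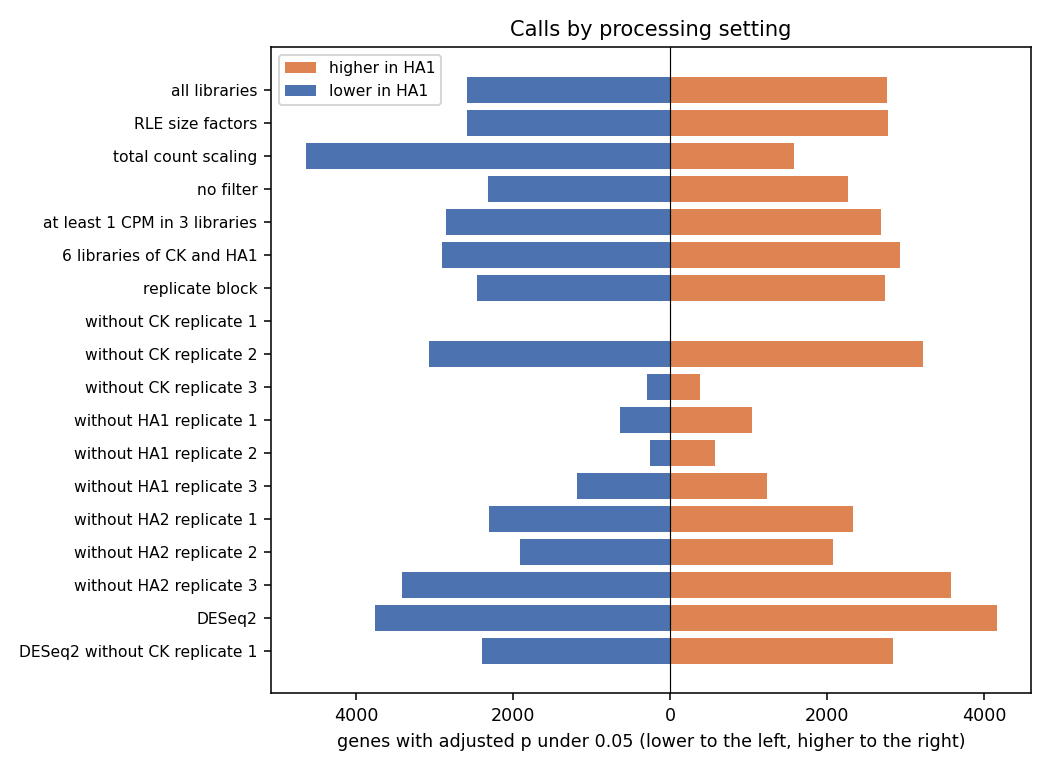
Bars give the number of genes with an adjusted p under 0.05 that were higher (orange, to the right) or lower (blue, to the left) in HA1 with all libraries and under each alternative setting. The bar is missing without CK replicate 1 (0 genes), is short without CK replicate 3 (666) and HA1 replicate 2 (823), and leans to the lower side with total-count scaling (1578 higher and 4647 lower).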

How the data were processed

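Young roots were the tissue, and their RNA was read in pairs of 150 bases, per the labels' protocols. The 1 deposited table holds, per the file headers, a raw count and an FPKM value for each gene in each library. Which aligner, counter, genome build and strand setting the authors used is not given here, and near-identical copies may share reads. Samples were grouped by the labels. Gene names were taken from the Swiss-Prot descriptions in the deposited table (16256 of 25260 tested genes had one).

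The counts went into edgeR 4.0.16 (R 4.3.3). Low genes were removed by filterByExpr, TMM factors scaled the libraries, and 1 quasi-likelihood model with 3 group means covered all 9 libraries. HA1 was tested against CK, two-sided, with Benjamini-Hochberg adjustment and a threshold of 0.05. Each SE is the size of the log2 fold change divided by the root of F. CPM values are scaled by TMM, and log2 CPM used a prior count of 2. The deposited FPKM values were used without TMM scaling, to rank genes by level and to show levels per library, and entered no test. Total counts of 33847262 to 42895196 set a counting floor of 3 counts, which covers counting error only.

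The members and the 67 gene lists were chosen with earlier results of these data known. List words were corrected for false matches after counts were seen. Named genes were, per list, the 2 members called with the lowest p in each direction and the called member with the highest mean CPM. Added were the 10 genes with the lowest p in each direction and a mean of at least 5 CPM, and the 10 with the highest mean FPKM. The 10 largest changes each way were taken among called genes with at least 5 CPM and no overlap between CK and HA1. For these, non-overlap was a condition of choice. The text prints a selection, made after the values were seen, as were 50 further genes outside that rule and the subfamily counts. Alternatives were RLE size factors, total-count scaling, DESeq2 1.42.0, no filter, at least 1 CPM in 3 libraries, the 6 libraries alone, a replicate block, and leaving out each library. The procedure was tested on simulated data of 24320 genes, where 100 were given a 2-fold and 100 a 4-fold change. It found 12% of the former and 78% of the latter, with 5 false calls out of 95. Tables were made with Python 3.11.15, pandas 2.3.3 and matplotlib 3.10.9.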

Additional observations from a re-analysis of the deposited data

How the results depend on the processing

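All libraries together gave 5355 called genes, 2761 higher and 2594 lower. With total-count scaling 1578 were higher and 4647 lower, as the median of all genes moved from -0.015 to -0.31. DESeq2 called 7920, of which 4160 were higher. Leaving out 1 library gave 0 calls (without CK replicate 1) to 7003 (without HA2 replicate 3), 0 to 3584 of them higher and 0 to 3419 lower. The pair left without CK replicate 1, CK replicates 2 and 3, differed most among control pairs (0.46 in median absolute log2 CPM), and the cause was not tested. RLE size factors gave 5359 calls, no filter 4591, at least 1 CPM in 3 libraries 5549, and the 6 libraries alone 5844. A replicate block gave 5206 calls, 2744 higher and 2462 lower. Replicate numbers were not treated as pairs, since deviations of same-numbered CK and HA1 libraries correlated at -0.0016, 0.068 and 0.025. Among the genes chosen by the rule or for the text, 0 reversed direction under any alternative, again with the same libraries refitted. The threshold was lost by 29 of them with total-count scaling, by 19 with the block, by 363 without CK replicate 1 and by 252 without CK replicate 3. By DESeq2 without CK replicate 1, chosen after seeing the data, 19 were lost. Depth limits genes near 3 counts. With 3 libraries a group, 12% of 2-fold changes were recovered in simulation, where 100 genes had such a change and 100 a 4-fold one. In the data 21.2% of genes were called. The adjusted threshold depends on that share, so the simulation does not give the share missed here.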

Other observations

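Proteases and a copper protein with large increases followed the uneven order of the mycorrhiza genes across the HA1 libraries. The vacuolar-processing enzyme (Rru07G030280), a protease of vacuoles, had 0.425, 0 and 0.235 CPM in CK and 36.0, 9.12 and 0.718 CPM in HA1. Subtilisin-like protease 3 (Rru07G020650) had 0.234, 0 and 0 CPM in CK and 14.7, 5.18 and 0.258 CPM in HA1, and umecyanin (Rru02G003520), a small copper protein, had 0.170, 0 and 0 CPM in CK and 16.2, 3.94 and 0.201 CPM in HA1. In all 3 genes HA1 replicate 1 was highest and HA1 replicate 3 lay near the highest control. Their adjusted p by edgeR's quasi-likelihood test was 0.0481, 0.0471 and 0.0434. None of the 3 passed when any CK library, HA1 replicate 1 or HA1 replicate 2 was left out, or with a replicate block. A linoleate 9S-lipoxygenase (Rru04G016620), which oxidises fatty acids, was even across HA1, with 11.5, 9.54 and 13.7 CPM against 0.425, 0.595 and 0.0470 CPM in CK.

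Genes listed by name for the endodermal barrier and its lipids fell in 16 and rose in 7 of 110 tested. This was 20.9% called against 21.2% of all genes and 14.5% lower against 10.3%. With total-count scaling 23 fell and 4 rose. CASP-like protein 4C1 (Rru01G042830), named for its likeness to proteins of the Casparian strip, fell by 3.25 ± 0.79. It had 8.15, 3.60 and 13.3 CPM in CK and 0.457, 0.782 and 1.41 CPM in HA1. CASP-like protein 5B2 (Rru03G014760) fell by 1.35 ± 0.20. A GDSL lipase (Rru02G056470) of that list rose by 2.43 ± 0.65, with 515, 1375 and 195 CPM in CK and 3535, 3499 and 4212 CPM in HA1. Copies of flavonoid 3-O-glucosyltransferase 7 went apart, Rru06G009840 rising by 2.39 ± 0.39 and Rru06G009670 falling by 1.89 ± 0.39. The respiratory burst oxidase B (Rru03G006850), which makes superoxide at the membrane, fell by 1.41 ± 0.28, and thioredoxin H9 (Rru03G010660) rose by 1.90 ± 0.28. The adjusted p of the genes in this paragraph ran from 0.00973 to 0.0328, and none passed without CK replicate 1.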
